A study of Mus musculus with 2 samples.

Results

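The genes that write, erase and read DNA methylation were examined as a set of 9: the methyltransferases Dnmt1, Dnmt3a and Dnmt3b, the methyltransferase partner Uhrf1, the dioxygenases Tet1, Tet2 and Tet3, and the methyl-binding proteins Mbd1 and Mbd2. They were chosen by name out of 21938 protein-coding genes of the mouse GENCODE M21 annotation, by a rule that uses no measured value. DNase-seq maps DNA that the enzyme DNase I can reach in chromatin. It was done on tissue labelled as layer of hippocampus, from female B6CASTF1/J mice aged 8 to 10 months. This strain is a first-generation cross, and nothing in the labels names a transgene or a treatment. There were 2 libraries in 1 group, numbered as biological replicates 1 and 2, each from a pool of 2 biosamples. No untreated or contrasting group was part of the design, so the values below describe 1 tissue and no difference between conditions was tested.

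Methylation of cytosine, mostly at CpG dinucleotides, is copied after replication by DNMT1, which UHRF1 brings to hemimethylated DNA, and is laid down on unmethylated DNA by DNMT3A and DNMT3B. TET enzymes oxidise the methyl group and so open a route to its removal, while MBD proteins bind methylated CpG. Neurons are known for high levels of 5-hydroxymethylcytosine, the first TET product, and for methylation outside CpG that DNMT3A deposits after birth. DNMT1, MBD1 and the long forms of TET1 and TET3 carry a CXXC zinc finger, a domain that binds DNA containing CpG.

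The larger peak list held 98902 peaks in replicate 1 and 130199 in replicate 2, and the footprint lists held 244447 and 251726 entries. A peak is a stretch with more cuts by DNase I than its surroundings. A footprint is a short stretch that is cut less than the bases around it, as under a bound protein, and need not lie in a listed peak. The signal of a peak is the height the authors gave it, and the median over all peaks was 0.5998 in replicate 1 and 0.5805 in replicate 2. All deposited signals were whole multiples of 0.006059 in replicate 1 and of 0.007952 in replicate 2 (within 0.05 of a step), so the median peak was 99 steps high in replicate 1 and 73 in replicate 2. Of 8 neuronal marker genes (Camk2a, Slc17a7, Snap25, Syt1, Rbfox3, Neurod6, Prox1 and Wfs1), each had a peak at a start in both libraries. The same held for 4 of 5 astrocyte, 3 of 4 oligodendrocyte, 1 of 5 interneuron, 1 of 5 microglial, 1 of 4 endothelial, 1 of 4 choroid plexus and 1 of 3 liver markers. The samples are bulk tissue, so fewer cells with an accessible site and a lower signal per cell cannot be told apart.

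A promoter peak, a peak within 500 bp of any annotated transcript start, was present in both libraries for 8 of the 9 genes. Over all protein-coding genes the share was 59.2% (60.4% in replicate 1 and 62.4% in replicate 2). A gene with more annotated starts has more windows by which to count, and this share was not matched for their number. Tet1 and Dnmt3b counted only through starts of transcripts without a coding sequence. Mbd1 and Dnmt1 had the highest promoter signals, Dnmt3b had the lowest of those with a peak in both, and Dnmt3a had a peak in replicate 2 only. The median of the 8 mean signals was 2.946 (0.7619 to 5.832), and the 12982 genes with a promoter peak in both libraries had a median of 2.302, with quartiles at 1.217 and 4.057. The 9 genes have 74 distinct annotated starts, of which 23 lay within reach of a peak in both libraries. Over all 93459 distinct starts of protein-coding genes that share was 47.3%. Grouped into 43 clusters of starts with overlapping windows, 8 clusters had a peak in both libraries, 3 in replicate 2 only, none in replicate 1 only, and 32 had no peak.  At the 5′ end of the gene record, the outermost base annotated, only Tet2, Mbd1 and Mbd2 had a peak in both libraries (3 of 9, where 53.3% of all protein-coding genes did).

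**Figure D1:**
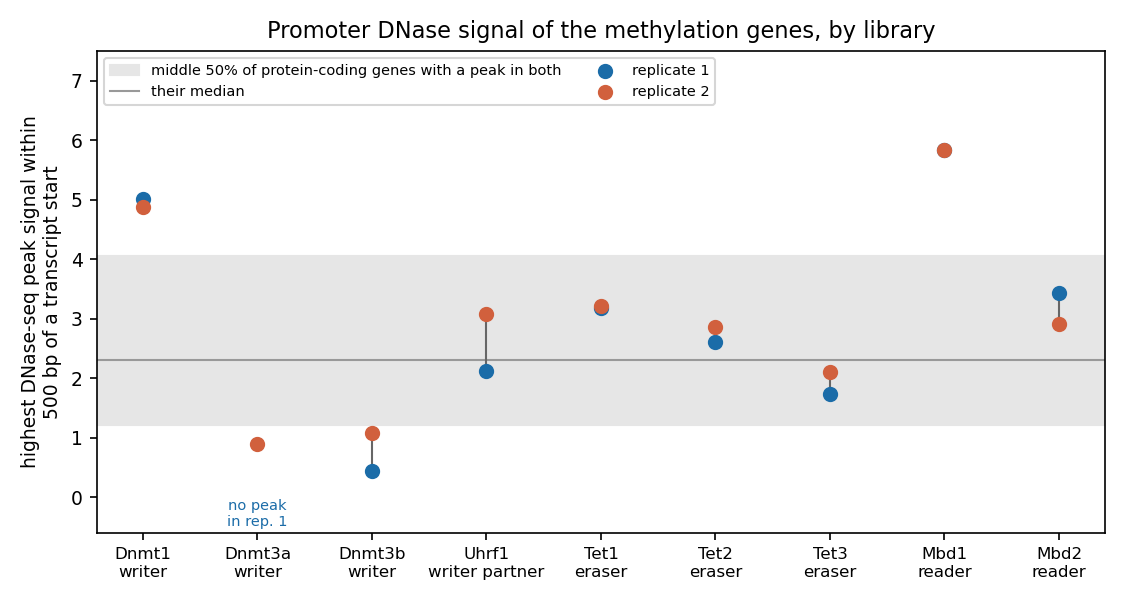
Highest DNase-seq peak signal (authors' height, vertical axis) within 500 bp of a transcript start, for each of the 9 genes on the horizontal axis. Points are the 2 libraries, the grey band and line are the quartiles and the median of the mean signal of genes with a peak in both, and Mbd1 and Dnmt1 lie above the band while Dnmt3b and the single Dnmt3a point lie below it.

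Dnmt1, the maintenance methyltransferase (ENSMUSG00000004099.16, chr9:20907209-20959888, minus strand, GRCm38/mm10), had a promoter signal of 5.017 in replicate 1 and 4.866 in replicate 2 (4.942 ± 0.1064, SD, n = 2). This was at percentile 82.9 of the genes with a peak in both libraries. The peak covered the same bases in both, chr9:20952821-20953040, at a cluster of 4 starts that includes Dnmt1-201, the transcript with the longest coding sequence (4860 bases, 1620 codons). The outermost start, of Dnmt1-202, which lies 6909 bp upstream of this cluster and leads to a shorter coding sequence of 4503 bases, had no peak in either library. No base within 500 bp of it had a deposited false discovery rate below 0.05, whereas 969 bases in replicate 1 and 1028 in replicate 2 did at the cluster of 4. The other starts of Dnmt1, 22699 and 50909 bp downstream of the outermost one, belong to transcripts with no coding sequence and had no peak.

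The Dnmt1 promoter is shown because a whole motif match lay in its longest run of footprint bases. Capitals mark bases inside a footprint of both libraries, letters are read 5′ to 3′ on the gene's strand, and the first stretch ends at the base before the Dnmt1-201 start. The other 3 stretches lie within the first exon of Dnmt1-201 and are each centred on a motif match.
Dnmt1 upstream, chr9:20952980-20953080: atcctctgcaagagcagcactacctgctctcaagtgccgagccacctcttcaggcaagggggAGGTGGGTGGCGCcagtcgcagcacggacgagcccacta
Dnmt1 NRF1 match, chr9:20952932-20952961: gccTCCGTTGCGCGCATGCGCACTCCcTTC
Dnmt1 SP/KLF match, chr9:20952853-20952882: gcttccgCTTGCGCCGCCCCCtcccaattg
Dnmt1 E2F match, chr9:20952825-20952854: tggtTTCCGCGCGCGCGAaaaagccggggt

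In a window of 300 bases over the Dnmt1 peak, 105 bases lay in footprints of replicate 1, 88 in those of replicate 2 and 77 in both. The longest run common to both libraries was 23 bases, and it held all 10 bases of a match to NRF1, a factor known to bind unmethylated CpG-containing sites. All 6 bases of an SP/KLF match (GGGCGG on either strand) and 6 of the 8 bases of an E2F match also lay in footprints of both libraries. Of 2 overlapping NFY matches (CCAAT), all bases lay in a footprint of replicate 1 and none in one of replicate 2.

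Dnmt3a, a de novo methyltransferase (ENSMUSG00000020661.15, chr12:3806007-3914443, plus strand), had no promoter peak in replicate 1 and one of signal 0.8906 in replicate 2. That peak was 150 bp wide (chr12:3806872-3807021), ended 9 bp before the start of Dnmt3a-201, 112 steps high, held 1 footprint and was absent from the stricter peak list. It serves the first cluster of starts, which leads to the long coding sequence of 2724 bases. Within this cluster's windows 178 bases had a false discovery rate below 0.05 in replicate 2, the lowest being 0.00979, and no base did in replicate 1. The start of the short form, Dnmt3a-203 and Dnmt3a-205 with 2067 coding bases, lies 85721 bp downstream and had no peak and no such base in either library. The 8 other clusters of Dnmt3a starts had no peak.

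The sequence under the Dnmt3a peak is shown for its base composition. It is the stretch chr12:3806797-3807029 on the plus strand, and its capitals mark the 8 bases of the only footprint, which was found in replicate 2.
Dnmt3a: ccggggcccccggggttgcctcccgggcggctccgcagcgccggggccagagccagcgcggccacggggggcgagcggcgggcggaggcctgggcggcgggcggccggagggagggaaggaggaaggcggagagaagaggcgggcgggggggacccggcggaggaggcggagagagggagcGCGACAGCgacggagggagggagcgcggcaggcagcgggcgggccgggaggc

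The full window of 300 bases around this peak was 83.7% G and C, with 49 CpG. Its observed over expected CpG ratio of 1.05 was at percentile 91.9 of the same windows at 13689 promoters with a peak in replicate 2. It held 7 matches to the SP/KLF motif, and no base of these lay in a footprint of either library.

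The strongest accessible site around Dnmt3a was not at a start. A peak at chr12:3791861-3792120, in the upstream flank 15040 bp before the Dnmt3a-201 start, reached 4.187 in replicate 1 and 4.858 in replicate 2 (4.523 ± 0.4749, SD, n = 2). Both values were above every promoter signal of the 9 genes except those of Dnmt1 and Mbd1. The nearest annotated start of any gene, that of Dtnb, was 12313 bp away, and 5 footprints of replicate 1 and 4 of replicate 2 lay in the site. Its central 300 bases had a CpG ratio of 0.729, with 2 matches each to the SP/KLF and NFY motifs. The next strongest shared site, in an intron 80730 bp downstream of the Dnmt3a-201 start (chr12:3887561-3887960), had signals of 1.763 and 1.869 and a CpG ratio of 0.0518. It held 1 match to MEF2, a motif found in 0.302% of 62010 such distal windows and in 1 of the 38 around the 9 genes. No footprint of either library touched this match. The gene had 12 shared sites outside promoters, 7 of them inside the gene record. The highest peak of replicate 1 without a counterpart was also in an intron of Dnmt3a, chr12:3823478-3823725, with a signal of 1.103 (182 steps).

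Dnmt3b, the other de novo methyltransferase (ENSMUSG00000027478.15, chr2:153649450-153687730, plus strand), is known mainly from early embryos. Its promoter signal was 0.4423 in replicate 1 and 1.081 in replicate 2 (0.7619 ± 0.4519, SD, n = 2), at percentile 11.9. This peak was at the start of Dnmt3b-212, a transcript without a coding sequence whose start lies 19920 bp inside the gene. All 10 coding transcripts begin at the first cluster, where replicate 1 had no peak and replicate 2 had 2 weak ones, of 0.3101 and 0.485. The peak of 0.485 was in the stricter list and held 2 footprints, unlike the other. At that cluster 532 bases had a false discovery rate below 0.05 in replicate 2, the lowest being 4.25e-05, and none did in replicate 1. Within 500 bp of the main coding starts of both de novo methyltransferases, peaks were thus found in replicate 2 alone, the library with more peaks overall. Just outside that window, an intronic site 1210 bp downstream of the Dnmt3a-201 start (chr12:3808101-3808378) was shared by the libraries. Its signals were 1.085 in replicate 1 and 0.8031 in replicate 2, and its CpG ratio was 0.831.

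Uhrf1, the partner that recruits DNMT1 (ENSMUSG00000001228.14, chr17:56303321-56323486, plus strand), had promoter signals of 2.121 and 3.077 (2.599 ± 0.6764, SD, n = 2). Replicate 2 was the higher of the libraries here, while Dnmt1 was slightly higher in replicate 1, both in deposited signals not scaled between libraries. The peak lay at the starts near base 56304313, which had a CpG ratio between 0.823 and 0.839. The 2 outermost starts, 56303321 and 56303400, had no peak within 500 bp. The Uhrf1 promoter is shown because its window of 300 bases had a CpG ratio of 1.08, the highest of the 9 such windows. It is printed up to the base before the exon at 56304313, with capitals as for Dnmt1.
Uhrf1, chr17:56304031-56304312: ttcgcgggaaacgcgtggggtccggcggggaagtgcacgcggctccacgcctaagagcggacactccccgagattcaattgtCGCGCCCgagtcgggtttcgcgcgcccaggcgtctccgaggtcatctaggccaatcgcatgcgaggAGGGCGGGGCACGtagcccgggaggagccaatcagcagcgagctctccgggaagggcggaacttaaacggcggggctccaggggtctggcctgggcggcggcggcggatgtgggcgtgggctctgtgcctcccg

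Footprints of both libraries shared 20 bases here. They included all 6 bases of 1 of the 3 SP/KLF matches of the window (bases 150 to 155), and none of the bases of its 2 E2F matches (bases 4 to 11 and 98 to 105), counted from the 5′ end. E2F factors are known to drive genes of the cell cycle.

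**Figure D2:**
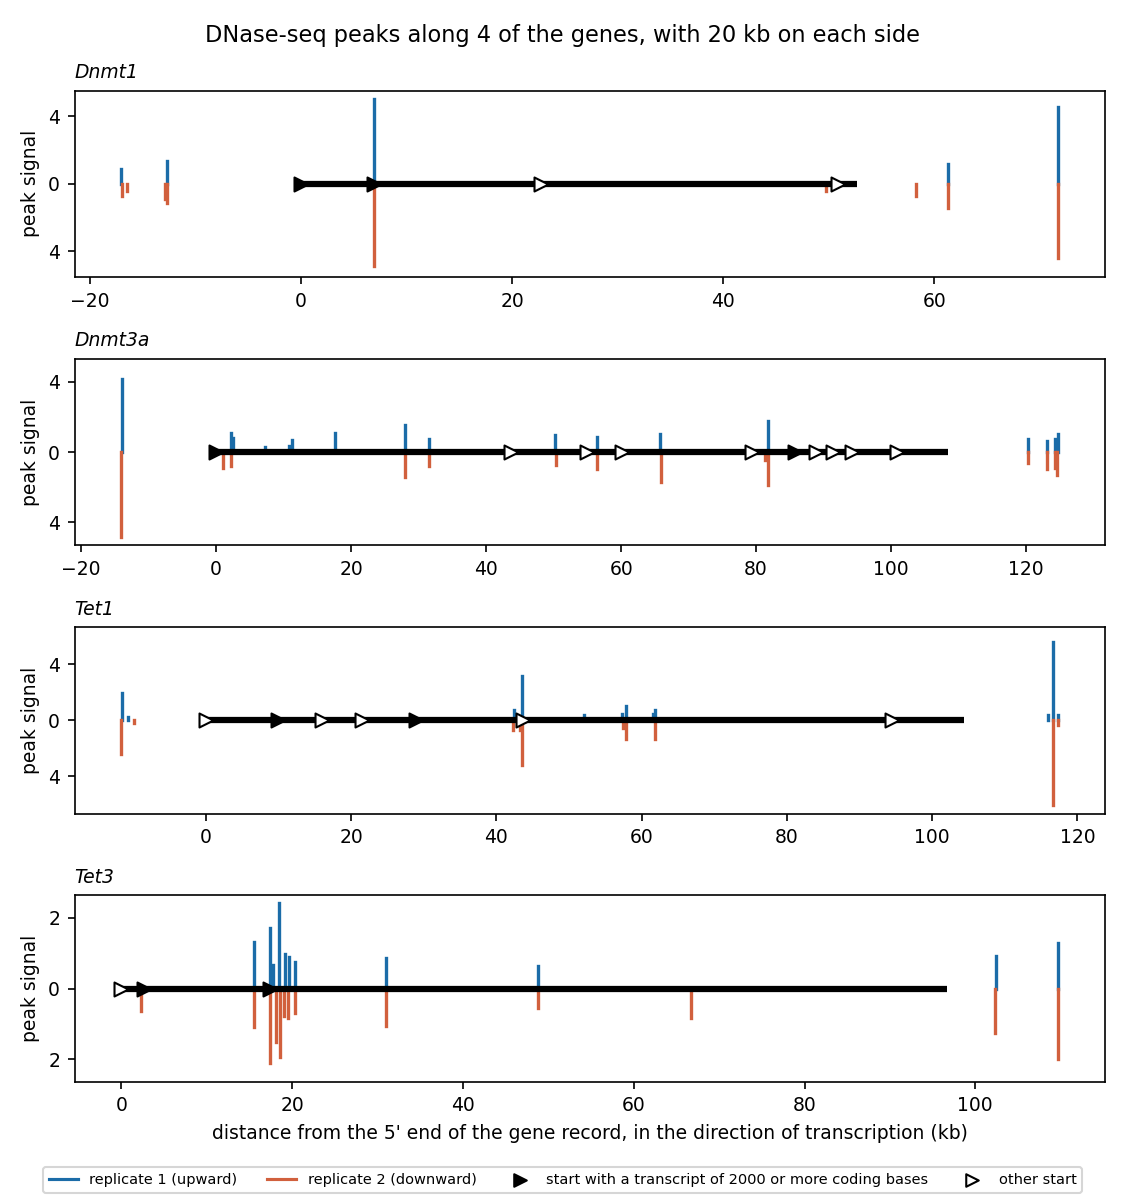
Peak signal (vertical axis, replicate 1 upward and replicate 2 downward) against distance in kb from the 5′ end of the gene record for Dnmt1, Dnmt3a, Tet1 and Tet3, with the record as a black bar and 20 kb on each side. Filled triangles are start clusters with a transcript of at least 2000 coding bases and open triangles are other starts, and the tallest peaks within the bar stand at a filled triangle in Dnmt1, at an open triangle in Tet1 and at and after the last filled triangle in Tet3. Beyond the bar, where peaks can belong to neighbouring genes, tall peaks stand upstream of Dnmt3a and downstream of Dnmt1 and Tet1.

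Tet1, a methylcytosine dioxygenase (ENSMUSG00000047146.17, chr10:62804570-62908996, minus strand), had a promoter signal of 3.169 in replicate 1 and 3.212 in replicate 2 (3.191 ± 0.03082, SD, n = 2), at percentile 64.5. This peak was not at a coding transcript. It lay at the start of Tet1-202, a transcript with no annotated coding sequence, 43692 bp downstream of the outermost start. The starts of the transcripts with full-length coding sequences, Tet1-206 (6117 bases) and Tet1-201 (6021 bases), had no peak in either library and no base with a false discovery rate below 0.05. The accessible start had 668 such bases in replicate 1 and 720 in replicate 2. Both long transcripts encode 1 match to the cysteine pattern of a CXXC finger, at codons 574 to 592, and the accessible start lies 12935 bp downstream of the bases that encode it. A shorter form of TET1 without the CXXC domain is known from adult tissue, and the annotation used here holds no coding transcript that begins at this start.

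The window at the accessible Tet1 start is shown because its CpG ratio, 0.272, was at percentile 5.69 of all such promoter windows. It reads 5′ to 3′ on the minus strand, with capitals as for Dnmt1.
Tet1, chr10:62865261-62865560: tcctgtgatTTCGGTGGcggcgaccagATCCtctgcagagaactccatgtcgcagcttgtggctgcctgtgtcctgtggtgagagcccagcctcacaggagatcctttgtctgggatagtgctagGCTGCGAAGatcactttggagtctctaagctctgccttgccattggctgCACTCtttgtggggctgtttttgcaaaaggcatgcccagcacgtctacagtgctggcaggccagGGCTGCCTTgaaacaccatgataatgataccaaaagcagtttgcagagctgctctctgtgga

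It held 6 CpG in 300 bases, and 1 of the 13 motifs searched, NFY, matched once, outside all footprints. Replicate 1 had 9 footprints in the window and replicate 2 had 6, with 35 bases in common in 5 runs. Further sites followed the accessible start inside the gene. The strongest was intronic, 14084 bp downstream of it (chr10:62851101-62851340), with signals of 1.012 and 1.328. The second, 18144 bp downstream (chr10:62847041-62847280), had signals of 0.7513 and 1.312.

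Tet2 (ENSMUSG00000040943.12, chr3:133463679-133545139, minus strand), whose protein is known to have lost the CXXC domain to the neighbouring gene Cxxc4, had promoter signals of 2.599 and 2.855 (2.727 ± 0.1805, SD, n = 2), at percentile 57.4. None of its complete coding transcripts encoded the CXXC pattern. All 5 starts of its first cluster had a peak in both libraries, among them that of the longest coding sequence (5760 bases), and the 5 clusters further inside the gene had none. The main peak lay over the inner starts, and a second, lower peak at the outermost start (0.7574 and 0.8031) also touched the start of Gm42567, an antisense gene, so the genes cannot be told apart there. The upstream part of the main peak is shown up to the base before the first exon, with capitals as for Dnmt1.
Tet2, chr3:133544391-133544490: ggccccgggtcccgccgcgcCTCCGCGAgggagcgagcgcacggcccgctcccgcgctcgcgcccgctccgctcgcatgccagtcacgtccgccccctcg

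Of the 300-base window, 58 bases lay in footprints of both libraries. The strongest sites away from the Tet2 starts were low, at 0.7634 and 0.7474 in an intron (chr3:133497001-133497280) and at 0.3393 and 0.7554 over an exon of Tet2-209, a transcript that encodes no protein (chr3:133473861-133474040). Cxxc4 itself had promoter signals of 1.218 and 1.551.

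Tet3 (ENSMUSG00000034832.15, chr6:83362373-83459084, minus strand) had promoter signals of 1.727 and 2.099 (1.913 ± 0.2633, SD, n = 2), at percentile 42. As in Tet1, the start of the long CXXC form was the less accessible one. The peak common to both libraries lay at the cluster with Tet3-202, whose 5004 coding bases hold no CXXC pattern. It also touched the start of B230319C09Rik, a noncoding transcript, and the peak cannot be assigned to 1 of them. The start of Tet3-203, with 5409 coding bases and 1 CXXC pattern at codons 57 to 75, is further upstream, 2692 bp from the outermost start of the gene, where the Tet3-202 cluster is 17406 bp from it. It had no peak in replicate 1 and in replicate 2 a peak of 0.6282 (79 steps) that was absent from the stricter list and held no footprint.

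The sequence before the accessible Tet3 start is shown up to the base before the exon of Tet3-202, with capitals as for Dnmt1.
Tet3, chr6:83441676-83441850: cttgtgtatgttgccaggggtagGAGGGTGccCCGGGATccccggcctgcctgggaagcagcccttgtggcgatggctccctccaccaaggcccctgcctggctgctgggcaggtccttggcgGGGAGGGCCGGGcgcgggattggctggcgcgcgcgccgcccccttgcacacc

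Behind this start the accessible region went on. Over the 3 kb downstream lay 4 more shared sites, all over the long exon of Tet3-205, a retained-intron transcript. The strongest of them (chr6:83440421-83440840) had signals of 2.411 and 1.932 and was higher than the promoter peak in replicate 1 and lower in replicate 2. Between it and the promoter, replicate 2 had the highest peak of any of these genes without a counterpart in replicate 1, 1.511 (190 steps, chr6:83440841-83441120). This peak began at the base right after the end of the shared site, and no peak of replicate 1 touched it. The part of where the peaks were bounded in its lack of a counterpart was not tested. A site 1922 bp upstream of the start (chr6:83443481-83443720) had signals of 1.327 and 1.073.

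Mbd1 (ENSMUSG00000024561.10, chr18:74267605-74282732, plus strand) encodes a protein that binds methylated CpG and carries CXXC fingers. It had the highest promoter signal of the 9 genes, 5.835 and 5.829 (5.832 ± 0.004462, SD, n = 2), at percentile 88.4. Its spread was the smallest in the signals as deposited, before any scaling between libraries. Its peak lay within 500 bp of all 4 starts of the first cluster, covered the one at 74268175 in both libraries and held 10 footprints in replicate 1 and 6 in replicate 2. All 6 footprints of replicate 2 within 500 bp of the starts were overlapped by one of replicate 1. The only other peak of each library was centred beyond the end of its record, at a start of another gene, and Mbd1 was the only gene of the 9 without a distal site in its 20 kb flanks. Mbd2 (ENSMUSG00000024513.16, chr18:70568189-70626131, plus strand), a protein of the NuRD repressor complex, had promoter signals of 3.429 and 2.902 (3.166 ± 0.3727, SD, n = 2), at percentile 64.1. In the deposited signals, replicate 1 was the higher library for Mbd2, as for Dnmt1 and by a small margin Mbd1. Replicate 2 was the higher one for the other 6 genes, of which Dnmt3a had no peak in replicate 1. These signals are not scaled between libraries, and the median of shared peaks was 0.6847 in replicate 1 and 0.827 in replicate 2. The order of the libraries at a gene therefore includes this offset. A shared site 3578 bp upstream of Mbd2 (chr18:70564481-70564740) had signals of 1.066 and 1.248, and an intronic one 1114 bp downstream (chr18:70569201-70569404) 0.7998 and 0.8826.

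The CpG content around the starts went with access, in these genes as over all genes, with exceptions. All annotated starts were ordered by the observed over expected CpG ratio of the 1001 bases around them and put into 5 bins of equal size. From the lowest bin to the highest, 4.87%, 10.1%, 42.6%, 86.4% and 92.8% had a peak in both libraries. Of the methylation genes' starts, 0 of 11, 1 of 17, 6 of 18, 7 of 11 and 9 of 17 did. Among starts with a peak within 500 bp in both libraries, the lowest ratios were at noncoding ones, Dnmt3b-212 (0.276) and Tet1-202 (0.39). Each of the 8 starts of the highest bin without a peak in replicate 1 had one in replicate 2. These 8 were 3 of Dnmt3a, 4 of Dnmt3b and 1 of Tet3, so they amount to 3 promoters, since neighbouring starts share their peaks. The Tet1 starts at ratios of 0.631 and 0.71, in bin 4, had no peak in either library.

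Those 3 promoters were rich in G and C. Of the 11 starts of these genes with at least 70% G and C within 500 bp, 10 had a peak in replicate 2 only and 1, of Mbd2, had a peak in both. Over all 3782 starts of such composition, 88.1% had a peak in replicate 1, 90.5% in replicate 2 and 4.23% in replicate 2 only. The part of base composition or of the number of peaks per library in the result for Dnmt3a, Dnmt3b and Tet3-203 was not tested.

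**Figure D3:**
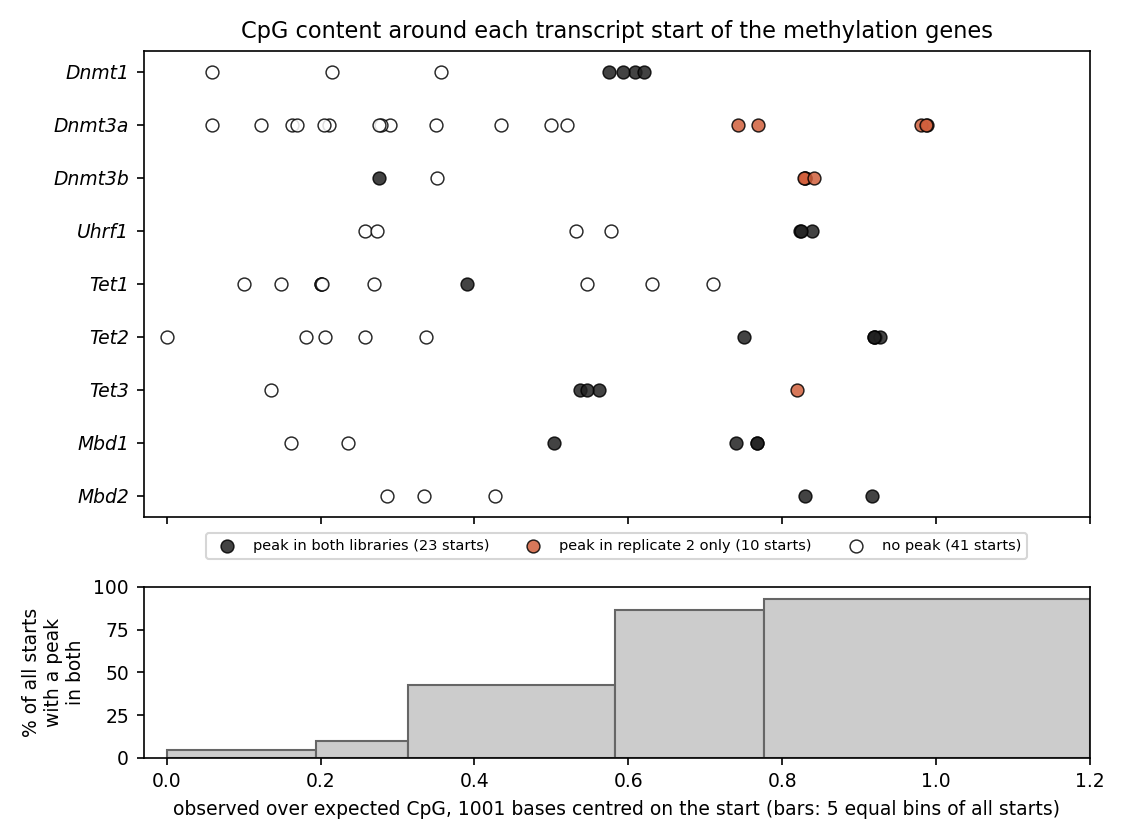
Upper panel: observed over expected CpG ratio (horizontal axis) of the 1001 bases around each of the 74 starts, by gene, with filled points for a peak in both libraries, orange for replicate 2 only and open for none. Lower panel: percentage of all annotated protein-coding starts with a peak in both libraries, in 5 bins of the ratio, from 4.87% to 92.8%, and the orange points of Dnmt3a, Dnmt3b and Tet3 lie where most starts are accessible.

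Footprints gave a view at the scale of single binding sites. Within 500 bp of the starts replicate 1 had 53 footprints, 47 of them touching a peak, and replicate 2 had 51, 45 of them touching a peak. The median footprint was 11 bases wide in each library. Of all 53 of replicate 1, 64.2% (Wilson 95% interval 50.7 to 75.7) were overlapped by one of replicate 2, and 74.5% (61.1 to 84.5) the other way round. These intervals cover counting error only. The same share over all footprints of each library is not given here, so whether these shares are usual cannot be told. Over the 300-base windows, the bases within footprints of both libraries numbered 92 for Mbd1, 77 for Dnmt1, 77 for Mbd2, 58 for Tet2, 35 for Tet1, 33 for Tet3, 20 for Uhrf1, 7 for Dnmt3b and 0 for Dnmt3a. Tet1, whose promoter signal was close to that of Mbd2, had fewer such bases than Mbd2.

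Of the 13 motifs searched on both strands of the 9 windows, 4 matched. SP/KLF (GGGCGG) matched in 6 of 9, beside 65.5% of the 13689 promoter windows of the same length. NFY (CCAAT) matched in 5, beside 39.6%. E2F (TTTCGCGC or TTTGGCGC or TTTCCCGC) matched in 2, Dnmt1 and Uhrf1, beside 3.88%, and NRF1 in 1, Dnmt1, beside 2.35%. No window held ETS (CCGGAAG, 18.6% of promoters), CRE (TGACGTCA, 3.84%), the E-box (CACGTG, 10.6%), AP-1 (TGACTCA or TGAGTCA, 3.02%), YY1 (1.67%), CTCF (1.62%), RFX (1.31%), the Kaiso motif (1.15%) or MEF2 (0.102%). A match to these letters is a description and shows neither binding nor its lack.

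**Figure D4:**
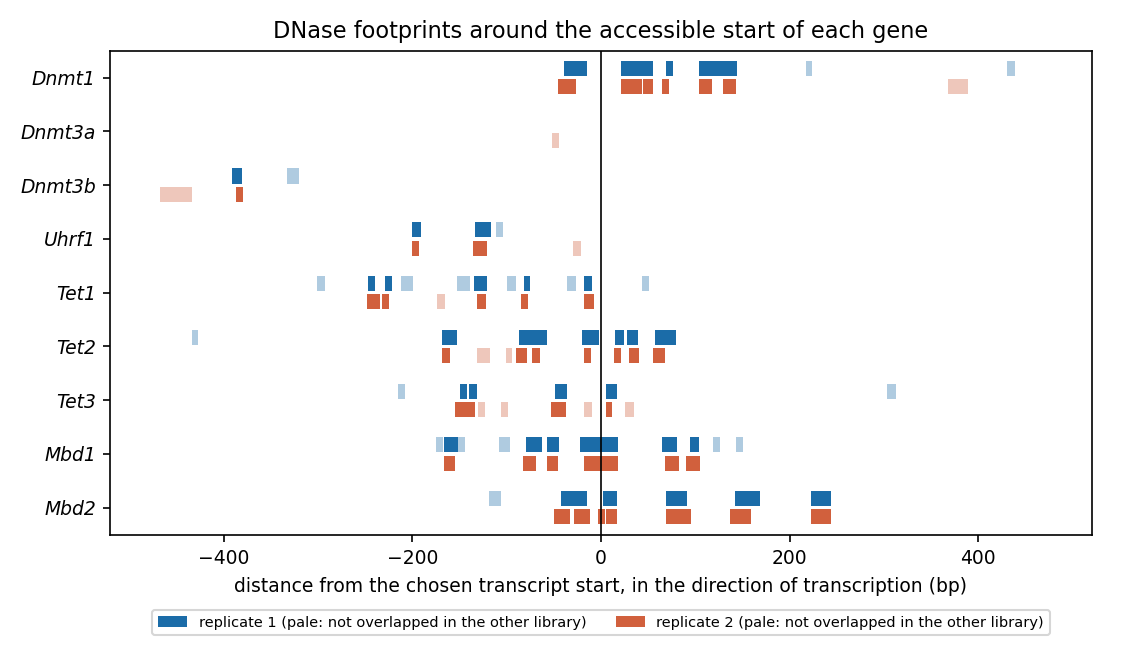
Footprints (bars) by distance in bp from a transcript start of each gene that had a promoter peak within 500 bp. Replicate 1 is in blue and replicate 2 in orange, pale where no footprint of the other library overlaps. The bars of the libraries coincide most in Dnmt1, Tet2, Mbd1 and Mbd2, and Dnmt3a has a single bar, from replicate 2.

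In the gene records with 20 kb on each side there were 73 peaks in replicate 1 and 82 in replicate 2. Of these, 80.8% (Wilson 95% interval 70.3 to 88.2) and 73.2% (62.7 to 81.6) were overlapped by a peak of the other library, beside 81.6% and 62% of all peaks. The median density of the 9 genes was 8.05 peaks per 100 kb in replicate 1 and 9.51 in replicate 2, where all protein-coding genes had medians of 5.55 and 7.15. Dnmt3a had the most merged sites (19, of which 12 were shared) and Mbd1 the fewest (2, both shared). Replicate 1 had 17 peaks around Dnmt3a and replicate 2 had 14, although replicate 2 had more peaks in the genome. Around Dnmt3b the order was the other way, with 4 and 10.

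**Figure D5:**
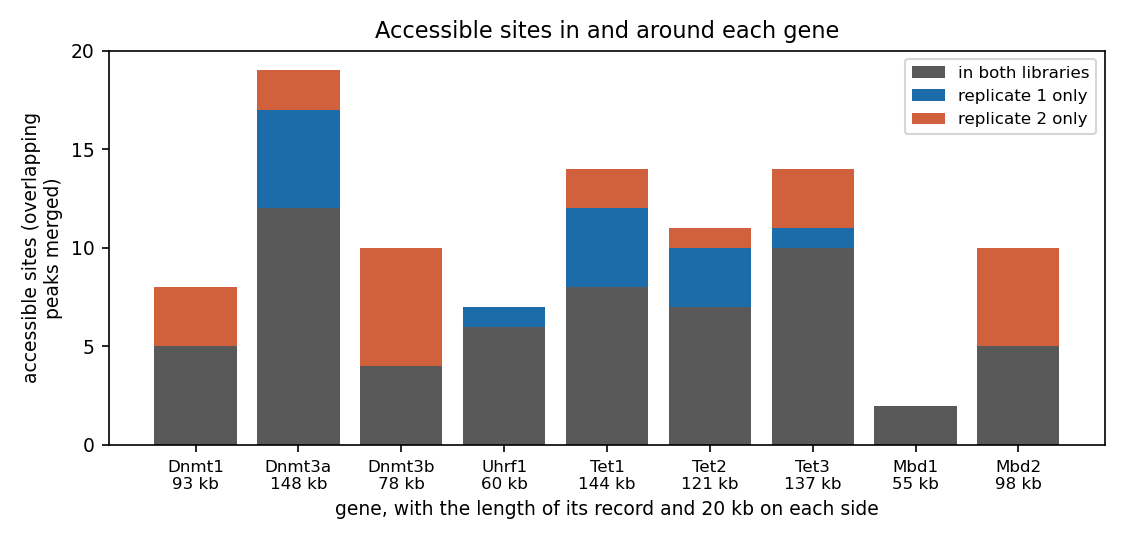
Number of accessible sites (overlapping peaks of the libraries merged, vertical axis) in each gene record with 20 kb on each side, split by the library in which they were found. Dnmt3a has 19 sites and Mbd1 has 2, and Dnmt3b has 6 of its 10 sites in replicate 2 only.

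Outside promoters of protein-coding genes, 38 sites were shared by the libraries: 12 around Dnmt3a, 8 around Tet3, 5 around Tet2, 4 each around Tet1 and Mbd2, 3 around Uhrf1 and 1 each around Dnmt1 and Dnmt3b. Several lay within neighbouring genes. The Dnmt1 site (chr9:20972221-20972900, 1.333 and 1.113) lay in S1pr2, a receptor gene for sphingosine 1-phosphate. Those next to Uhrf1 lay in Plin3 (chr17:56291161-56291480, 1.333 and 0.9065) and Arrdc5 (chr17:56294287-56294531, 0.6786 and 1.034). The single shared distal site of Dnmt3b was intronic and low (chr2:153680061-153680240, 0.3938 and 0.3976).

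CTCF, a factor known for holding chromatin loops, matched in 3 of the 38 sites, beside 5.48% of all 62010 shared distal windows. The 3 matches are shown because each was touched by a footprint in both libraries, which no other motif reached in more than 1 site. A touch needs only 1 base, and CTCF, with 14 letters, was the longest motif searched. The share of CTCF matches so touched over all distal windows is not given here. Letters are on the plus strand of 30 bases centred on the match, with capitals as for Dnmt1.
Tet3 downstream flank, chr6:83356701-83356730: aaaaCTAGCCACTAGGGGGCAGCGTGGgcc
Dnmt3a downstream flank, chr12:3926293-3926322: taaggtggccaccagAGggcagagTTGTTC
Uhrf1 upstream flank, chr17:56291369-56291398: gcatgTTGCCaccaggtggcgccctgctcg

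The footprints of both libraries covered most of the Tet3 site and some bases of the other 2.

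Most other genes of the pathway were accessible at a start as well. Both libraries had a promoter peak for 30 of 33 further genes (90.9%, beside 59.2% of all protein-coding genes), with a median signal of 3.205 (0.3845 to 10.03). The highest were Mbd3, a subunit of NuRD (11.96 and 8.095), Xrcc1, a scaffold of base excision repair (8.743 and 7.3), and Mbd4, a thymine glycosylase that binds methylated CpG (7.955 and 6.886). All 3 exceeded Mbd1. No promoter peak was found in either library for Dnmt3l and Dppa3, which act in germ cells and early embryos, and Zfp57, an imprint factor, had a peak in replicate 2 only (0.3896).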

How the data were processed

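DNase-seq was measured in 2 libraries of 1 group, and the labels do not say whether their pools of 2 biosamples came from different animals, so the spread between them may be technical. Per the labels, 4 files on mm10 came with each library. They were deposited by the authors and hold peaks (a larger and a stricter list), footprints, and bases with a false discovery rate. The aligner, the callers and their versions were not given in the sources used here. The effect of placing reads of a strain cross on the reference was not tested. The height of a peak is a signal deposited by the authors, and no source used here states what its unit step is. Without it the depth is unknown, and the steps show only that replicate 1 resolved finer differences in signal. The deposited false discovery rates are a p-value type unit listed only below 0.05, and every footprint carries the deposited p-value type threshold 0.01, so no footprint was ranked.

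Starts and gene records came from GENCODE M21 and sequences from the RefSeq copy of GRCm38.p6 (mm10), in which no peak ran past a chromosome end. Overlaps of at least 1 bp were found in Python 3.11.15, and checked on simulated intervals. Promoter windows reached 500 bp to each side of a start, and a distal site touched no such window of a protein-coding gene. The larger peak list was used, and the stricter list, a window of 2000 bp, the 5′ end of the record, flanks of 0 or 50 kb, a reciprocal overlap of 0.5, scaled signals and each library alone were the alternatives. CXXC matches were cysteines spaced as in the known domain, sought in translated coding sequences. No test was made, since there was 1 group.

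The members and lists were chosen with earlier results of these data known. Named were all 9 genes, the 2 highest shared distal sites of each, the highest peak of each library without a counterpart, and of the wider pathway the 3 highest genes and those without a peak. Cxxc4, Zfp57, the CTCF sites and the split by G and C content were added after their values were seen. Sequences of Mbd1 and Mbd2 are not reported here.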

Additional observations from a re-analysis of the deposited data

How the results depend on the processing

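No paired analysis was possible because there was 1 group. A signal was taken as moved when it changed by more than 1 SD, a count by more than 1.5 times, and a share when it left its Wilson interval. By these rules 34 of 53 recomputed values did not move. Signals from 1 library alone were left out of this count, because a mean of 2 always lies within 1 SD of both, and for Dnmt3b they were 0.4423 and 1.081. Where a window of 2000 bp kept the same highest peak, as for Dnmt1 and Uhrf1, the signal was unchanged by construction. The same held for Mbd1 and Mbd2 at the 5′ end of the record. Such values are among the 34, and counts of 8 of 9 or 30 of 33 genes could not rise by 1.5 times. Dnmt3a, which had no SD, was counted as moved in that window. Counting only the outermost 5′ base of each record, the genes with a promoter peak in both libraries fell from 8 to 3 and the Tet2 signal was 0.7802. With coding transcripts alone, 14 of 46 distinct starts had a peak in both libraries, and the share over all coding starts is not given here. With a window of 2000 bp, the Tet3 signal was 2.255 and the mean for Dnmt3a was 1.019 (its highest peaks then lie at different sites in the 2 libraries). In that window 9 of 9 genes counted, beside 63.5% of all genes. Scaling to equal medians of shared peaks gave 5.884 for Mbd1, whose libraries differed little before scaling. The stricter list left 7 of the 9 genes (77.8%, beside 53.3% of all genes), without Dnmt3a and Dnmt3b. Using replicate 2 alone gave 9 genes (beside 62.4% of all genes) and replicate 1 alone gave 8 (beside 60.4%). Among the other pathway genes the count ranged from 24 to 31 of 33 over all alternatives, where the share of all genes ranged from 53.3% to 63.5%.

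Peaks around the genes numbered 41 and 52 in the stricter lists (replicates 1 and 2), 44 and 49 without flanks, and 124 and 130 with flanks of 50 kb. Shared distal sites numbered 16, 25 and 66 in the same order. A reciprocal overlap of 0.5 brought the shared peaks to 67.1% and 61%, and the shared footprints of replicate 2 to 52.9%, while counting only footprints inside peaks of both libraries gave 81.1% for replicate 1. Each library alone gave 23 (replicate 1) and 33 (replicate 2) starts with a peak. With 2 libraries, an SD rests on 1 difference. A missing peak says only that none passed the authors' threshold at this depth.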
